A study of Homo sapiens with 6 samples.

Results

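The RNAs encoded by the mitochondrial genome (mtDNA) were described in 6 RNA-seq libraries. All 37 rows of the count files that belong to this genome were taken by their symbols, out of 38986 rows in all: 13 mRNAs, 2 rRNAs and 22 tRNAs. The study compared 293T cells, a human embryonic kidney line, that carried wild-type STAT6 with 293T cells labelled Mock, both described as mCherry+ (mCherry is a red fluorescent protein), and its stated question was the role of STAT6 in mitochondrial gene expression. STAT6 is a transcription factor that acts downstream of interleukin 4 and interleukin 13. Each group has 3 libraries, with the genotype labelled as STAT6 overexpression in 1 group and as WT in the other. The vector, its promoter, the time after its delivery and the number of separate cultures are details not given in the sources used here, so p-values measure the spread between libraries, which may be technical.

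The labels were checked against the files before any comparison. The rows carry mouse gene symbols, with 0 rows named STAT6 and 1 row named Stat6, although the labels name a human line. Stat6 stood at 35.1, 33.6 and 32.1 counts per 1000000 counts (CPM) in the 3 libraries labelled STAT6, against 95.2, 95.5 and 92.8 CPM under the label Mock, so it goes against the labels (log2 value -1.49, SE 0.04, adjusted p = 7.47e-26, edgeR). The 7 pigment cell markers Tyr, Tyrp1, Dct, Pmel, Mlana, Mitf and Sox10 summed to 16162 to 16488 CPM under the label STAT6 and to 14690 to 15132 CPM under the label Mock. This sum used unscaled library totals, whereas CPM of single genes here used the adjusted totals described below. Of the 7 markers, 4 were called higher, 2 lower and 1 not called, where 35.8% of all genes were called higher and 36.8% lower. Dct was at 6179 ± 17.4 against 4264 ± 111 CPM (SD, n = 3) and Tyr at 29.1 ± 0.758 against 303 ± 5.29. The part of these differences in the results below was not tested, and in bulk RNA fewer cells of a type and less RNA per cell cannot be told apart. Of 8 embryonic kidney markers, Six2 and Pax8 had 0 counts, Lhx1 had counts only in the libraries labelled STAT6 (198 in all), and Eya1 was at 51.6 ± 1.61 CPM there against 261 ± 5.06 under the label Mock (SD, n = 3). Library totals ran from 19894773 to 29802693 counts. Directions below follow the labels alone: "higher" refers to the group labelled STAT6, the one with less Stat6 mRNA.

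Mammalian mtDNA is a small circle read from both strands into long transcripts that carry many genes. tRNAs lie between most of the mRNAs and rRNAs, and cutting them out releases the other RNAs, so genes that start on 1 transcript can still end at different levels through processing, tailing and decay. The mRNAs encode subunits of complexes I, III, IV and V of oxidative phosphorylation, and the rRNAs and tRNAs serve the ribosome inside the mitochondrion. Of the mRNAs, ND6 alone belongs to the light (L) strand, together with 8 of the 22 tRNAs, and the rest belong to the heavy (H) strand. Most mitochondrial mRNAs carry short poly(A) tails, whereas the rRNAs have very short ones and finished tRNAs have none. The libraries were made with an mRNA kit, which selects poly(A) RNA, so rRNA and tRNA rows report what passed that selection.

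As shares of all counts, the 3 RNA classes did not move together. The mRNAs took 11.9%, 12.2% and 12.1% of counts in the STAT6-labelled libraries, against 9.82%, 10.1% and 9.93% in those labelled Mock. The rRNAs took 0.302%, 0.322% and 0.352% against 0.454%, 0.392% and 0.398%. The tRNAs took 5.96, 5.53 and 5.50 CPM (of unscaled library totals, as for all class shares) against 5.63, 4.88 and 6.01. The mRNA share was therefore higher and the rRNA share lower in each library labelled STAT6 than in any labelled Mock, while the tRNA share overlapped. Exact 95% Clopper-Pearson intervals were at most ± 0.0144 percentage points wide for the mRNA shares. For the tRNA shares, which rest on 110 to 179 counts per library, they were as wide as 4.54 to 6.66 CPM (STAT6 replicate 2). Such intervals cover counting error only. No p is given for these sums.

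Set against the mRNAs of the same library, the rRNAs made up 2.54%, 2.64% and 2.91% as many counts under the label STAT6 and 4.62%, 3.87% and 4.01% under the label Mock. The mean ratio was 2.70% ± 0.192 (SD, n = 3) against 4.17% ± 0.400, and the groups did not overlap. For tRNAs the ratio was 50.2, 45.4 and 45.5 counts per 1000000 mRNA counts against 57.3, 48.2 and 60.5, with overlap. In this measure Mock replicate 2 lay inside the range of the libraries labelled STAT6.

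**Figure D1:**
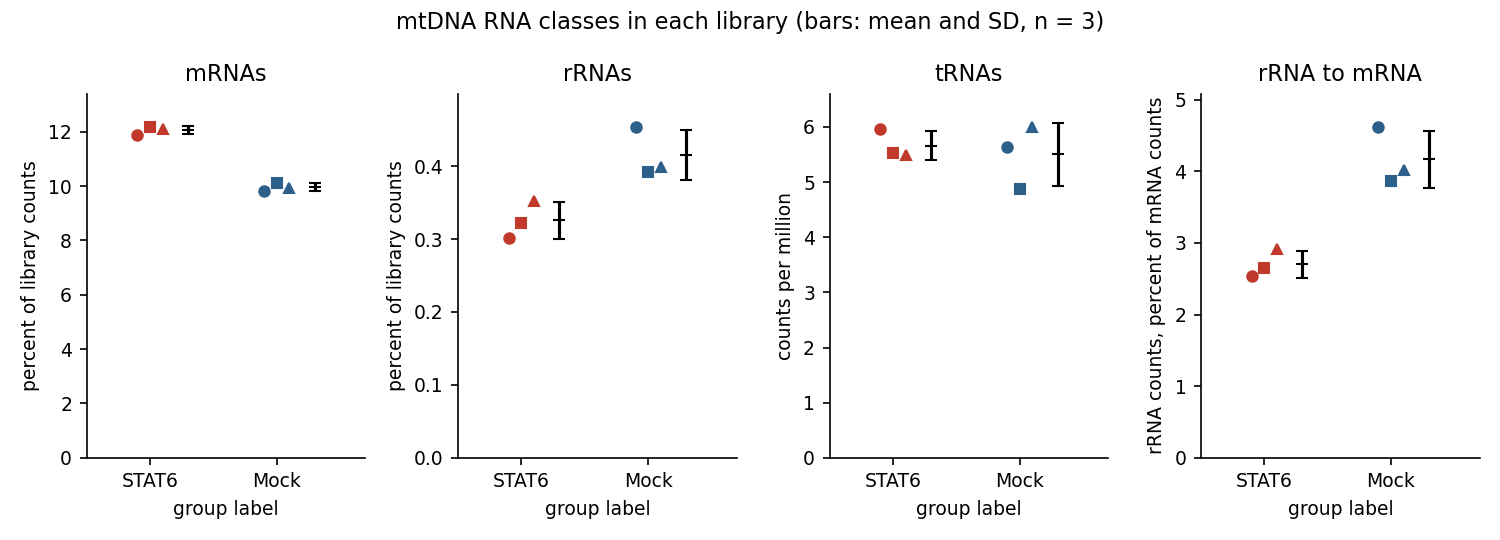
Summed mtDNA mRNAs and rRNAs as a percent of all counts, tRNAs as CPM, and rRNA counts as a percent of mRNA counts, each axis starting at 0, with 1 point per library and the mean ± SD beside each group. The mRNA share (9.82% to 12.2%) and the rRNA to mRNA ratio (2.54% to 4.62%) separate the groups in opposite directions, and the tRNA share overlaps.

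Each gene was then tested in a fit over all genes (edgeR's quasi-likelihood test, Benjamini-Hochberg adjustment over 12938 genes, threshold 0.05), with levels given as CPM on library totals adjusted by TMM, a scaling that centres the bulk of genes. Between these libraries 72.6% of all tested genes passed, 35.8% higher and 36.8% lower, and in 74.6% the groups did not overlap, so neither alone sets a gene apart. A filter on low counts kept all 13 mRNAs, both rRNAs and 3 of 22 tRNAs. Of the mRNAs 12 were higher and 1 lower, and their median log2 value was 0.32, against -0.00 over all genes tested. Of the 2 rRNAs 0 were higher and 1 was lower, and of the 3 tRNAs 0 were higher and 1 lower. The same 0 rRNAs and 0 tRNAs were higher at an unadjusted p under 0.05 with edgeR, with DESeq2 and with limma-voom.

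**Figure D2:**
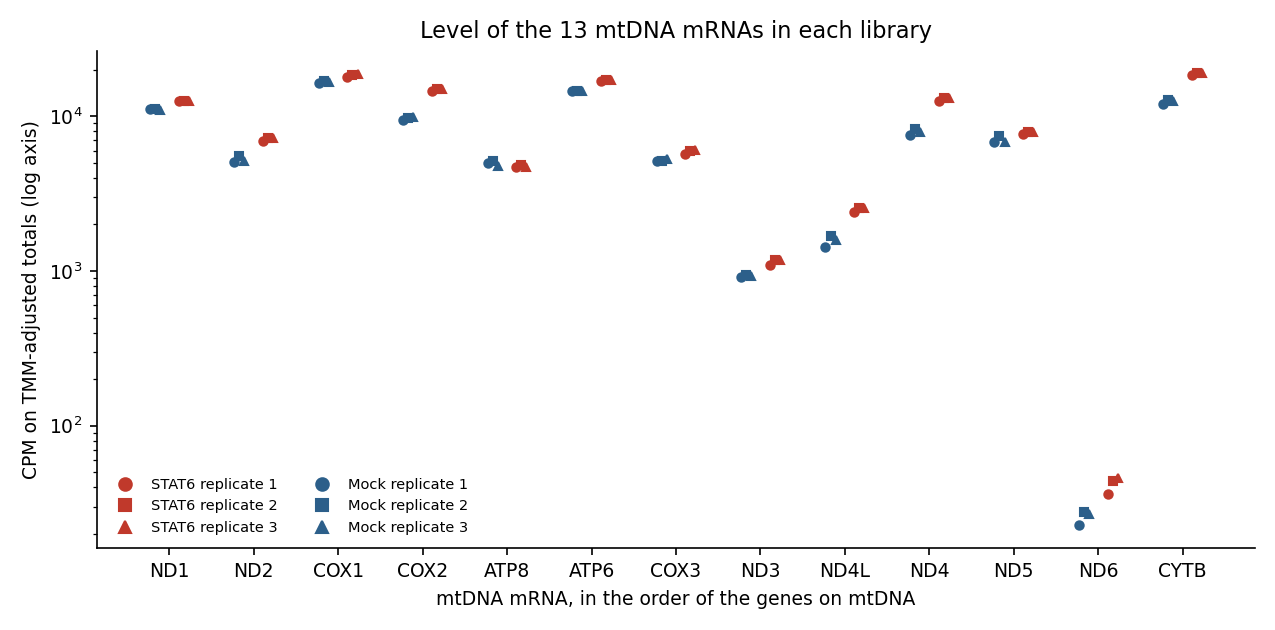
CPM of each mtDNA mRNA on a log axis, in the order of the genes on mtDNA, with 1 point per library, Mock at the left and STAT6 at the right of each gene. For 12 mRNAs the groups do not overlap and the libraries labelled STAT6 are higher, while ATP8 overlaps. Differences in height between genes also reflect gene length.

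Complex I, the NADH dehydrogenase at which electrons enter the respiratory chain, takes 7 of the mRNAs, and all 7 were higher. ND4, an antiporter-like subunit of its membrane arm, stood at 12584, 13179 and 13189 CPM in the STAT6-labelled libraries, against 7524, 8219 and 7857 CPM in those labelled Mock. The groups were far apart, at 1.65-fold (log2 fold change 0.72, SE 0.03, adjusted p = 5.99e-19, edgeR). ND4 was also the 1 mRNA that passed a test for a change beyond 1.5-fold (glmTreat, adjusted p = 2.3e-05), which 14.0% of all genes passed as higher and 7.51% as lower. ND4L, a small subunit whose reading frame overlaps that of ND4 on a shared mRNA, gave 2394, 2556 and 2553 against 1435, 1681 and 1584 CPM, with a log2 fold change of 0.67 (95% interval 0.51 to 0.84).

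ND2, another antiporter-like subunit, was at 6960, 7215 and 7210 CPM against 5051, 5510 and 5127 (log2 fold change 0.45, adjusted p = 8.02e-15, edgeR). Its 3 lowest libraries were the 3 labelled Mock. ND3, which lies at the joint of the membrane and matrix arms, was at 1101, 1184 and 1174 against 909, 937 and 923 CPM (log2 fold change 0.32). ND1, beside the quinone site, and ND5, the outermost antiporter-like subunit, changed least of the complex. ND1 was at 12467, 12512 and 12608 against 11052, 11194 and 10910 CPM (0.18). ND5 was at 7679, 7943 and 7932 against 6843, 7473 and 6832 CPM (0.16, adjusted p = 5.07e-05, edgeR), with Mock replicate 2 the nearest to the libraries labelled STAT6.

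ND6 is the complex I mRNA of the L strand and lies between ND5 and CYTB, opposite the H-strand transcript. It stood at 36.2, 43.7 and 46.0 CPM under the label STAT6 and at 22.7, 27.6 and 27.1 under the label Mock, with no overlap (log2 fold change 0.69, 95% interval 0.44 to 0.95, adjusted p = 6.65e-04, edgeR). With 524 to 939 counts per library it is the least precise of the mRNAs. Whether counting used the strand is not given in the sources used here, and without it reads of ND6 and of the opposite transcript cannot be told apart. Per 100 counts of ND5 there were 0.534 ± 0.0560 counts of ND6 (SD, n = 3) in the STAT6-labelled libraries, against 0.366 ± 0.0321 in those labelled Mock, without overlap (exact permutation test, 2-sided, p = 0.1). Per 100 counts of CYTB, its neighbour on the other side, there were 0.223 ± 0.0252 and 0.208 ± 0.0150, with overlap (exact permutation test, 2-sided, p = 0.4).

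Complex III has 1 subunit from mtDNA, cytochrome b. Its mRNA CYTB was at 18588, 18906 and 18920 CPM under the label STAT6 and at 11941, 12757 and 12508 under the label Mock, 1.52-fold higher (log2 fold change 0.60, SE 0.02, adjusted p = 9.76e-22, edgeR).

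Complex IV, cytochrome c oxidase, takes its 3 core subunits from mtDNA. COX2, which holds the copper site that accepts electrons from cytochrome c, was at 14601, 15000 and 14957 CPM against 9511, 9712 and 9835, or 1.53-fold higher (log2 fold change 0.62, SE 0.02, adjusted p = 1.3e-22, edgeR). COX1, which holds the site of oxygen reduction, was at 17817, 18414 and 18659 CPM against 16401, 16899 and 16612 (0.14, SE 0.02). COX3, a core subunit without metal sites, was at 5672, 5964 and 6039 CPM against 5147, 5170 and 5317 (0.18, SE 0.03). All 3 separated the groups, COX2 by a far wider margin than the others: the 95% interval of its log2 fold change (0.57 to 0.66) did not meet those of COX1 (0.09 to 0.19) and COX3 (0.12 to 0.23).

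Complex V, the ATP synthase, takes ATP6 and ATP8, 2 subunits of its membrane part whose reading frames overlap on a shared mRNA. ATP6, which forms the proton path, was at 16790, 17168 and 17097 CPM against 14573, 14594 and 14481 (log2 fold change 0.23, SE 0.02). ATP8 was at 4686, 4869 and 4691 CPM against 4956, 5158 and 4792, with overlap, and was called lower (log2 fold change -0.07, adjusted p = 0.0292, edgeR). DESeq2 did not make that call (adjusted p = 0.0715), nor did edgeR once STAT6 replicate 1 (0.101), STAT6 replicate 3 (0.104) or Mock replicate 2 (0.138) was left out.

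For each pair that shares an mRNA, the ratio of its counts was compared. ND4L had 0.193 ± 0.00203 counts per count of ND4 (SD, n = 3) in the STAT6-labelled libraries, against 0.199 ± 0.00729 in those labelled Mock, with overlap (exact permutation test, 2-sided, p = 0.3). ATP8 had 0.279, 0.284 and 0.274 counts per count of ATP6 against 0.340, 0.353 and 0.331, lower in each library labelled STAT6 than in any labelled Mock (exact permutation test, 2-sided, p = 0.1). An exact test of 3 libraries against 3 has 20 assignments and cannot go below 0.1. Over the 7 ratios of single genes tested in this way the adjusted values were 0.175 at the lowest. How reads in the overlap of 2 reading frames were shared out is not given in the sources used here.

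**Figure D3:**
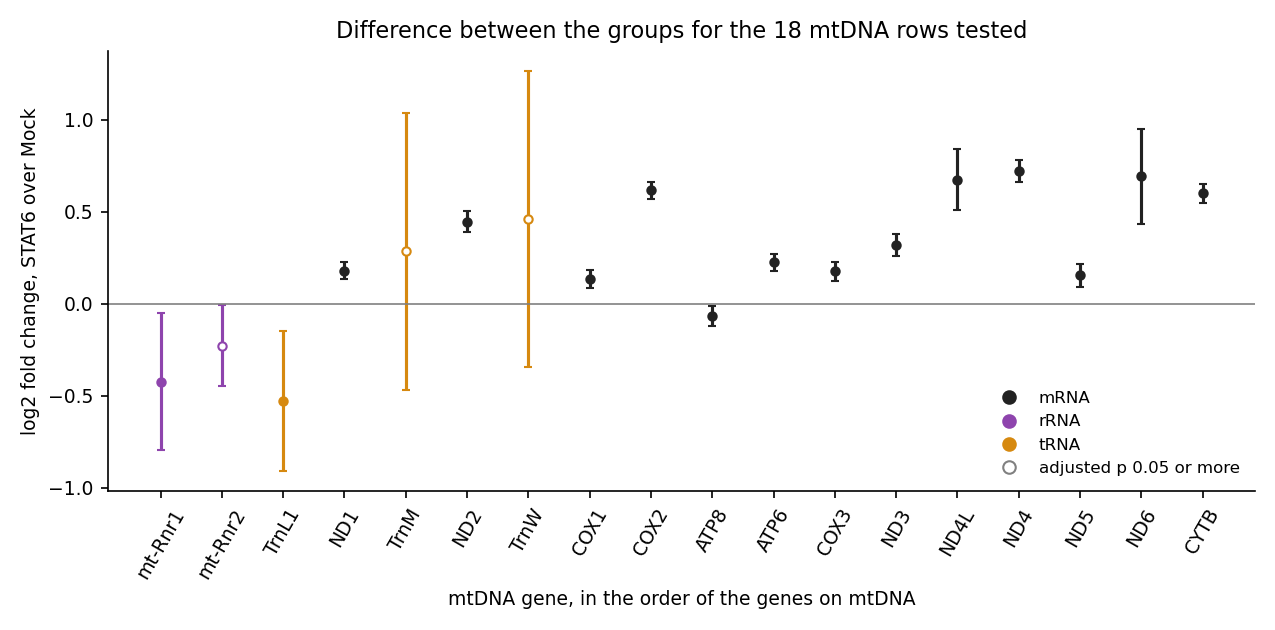
Log2 fold change of the 18 mtDNA rows tested, libraries labelled STAT6 over those labelled Mock, in the order of the genes on mtDNA, with 95% intervals from edgeR and open circles where the adjusted p was 0.05 or more. Both rRNAs and TrnL1 lie below 0 at the start of the H-strand transcript, 12 mRNAs lie above 0, and neighbours such as COX1 (0.14) and COX2 (0.62) differ.

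Along the order of the genes, from ND1 to CYTB the log2 fold changes ran 0.18, 0.45, 0.14, 0.62, -0.07, 0.23, 0.18, 0.32, 0.67, 0.72, 0.16, 0.69 and 0.60. Small values stood beside large ones at COX1 and COX2, at COX2 and ATP8, and at ND4 and ND5. This order is the one textbooks give for vertebrate mtDNA, and no coordinates were used.

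To compare the mRNAs with each other, the same fit was made with the summed mtDNA mRNA counts as each library's size, so that a value is a change relative to this pool. On that scale the bulk of all genes shifted by -0.35 on the log2 scale, and 19.0% of all genes were called higher and 62.0% lower (2456 and 8018 genes, against 4638 and 4761 with TMM). Of the 13 mRNAs 6 were higher within the pool, 6 were lower and ND3 did not pass (log2 value -0.03, adjusted p = 0.426, edgeR). The 6 higher ones were ND4, ND6, ND4L, COX2, CYTB and ND2, and the 6 lower ones ATP8, COX1, ND5, COX3, ND1 and ATP6. Since shares of 1 pool must sum to the whole, a rise of some members brings a fall of others.

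ND4 made up 10.4%, 10.5% and 10.5% of the pool under the label STAT6 and 7.89%, 8.27% and 8.12% under the label Mock (log2 value 0.37, SE 0.03). CYTB made up 15.2% ± 0.107 (SD, n = 3) against 12.8% ± 0.211, and COX2 11.998% ± 0.0359 against 9.97% ± 0.191. In the other direction, COX1 fell from 17.1% ± 0.0979 of the pool in the libraries labelled Mock to 14.8% ± 0.125, the log2 value being -0.21. ATP8 fell from 5.11% ± 0.141 to 3.84% ± 0.0763, with a log2 value of -0.41 (adjusted p = 6.98e-18, edgeR). All 12 mRNAs called on this scale had groups that did not overlap, where with TMM 74.6% of all genes did not. The share over all genes was not computed on the pool's scale. The calls rest on the same values, so the lack of overlap is no separate support. Both directions occurred within a complex: in complex I, ND4, ND6, ND4L and ND2 were higher and ND5 and ND1 lower relative to the pool, and in complex IV, COX2 was higher and COX1 and COX3 lower.

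**Figure D4:**
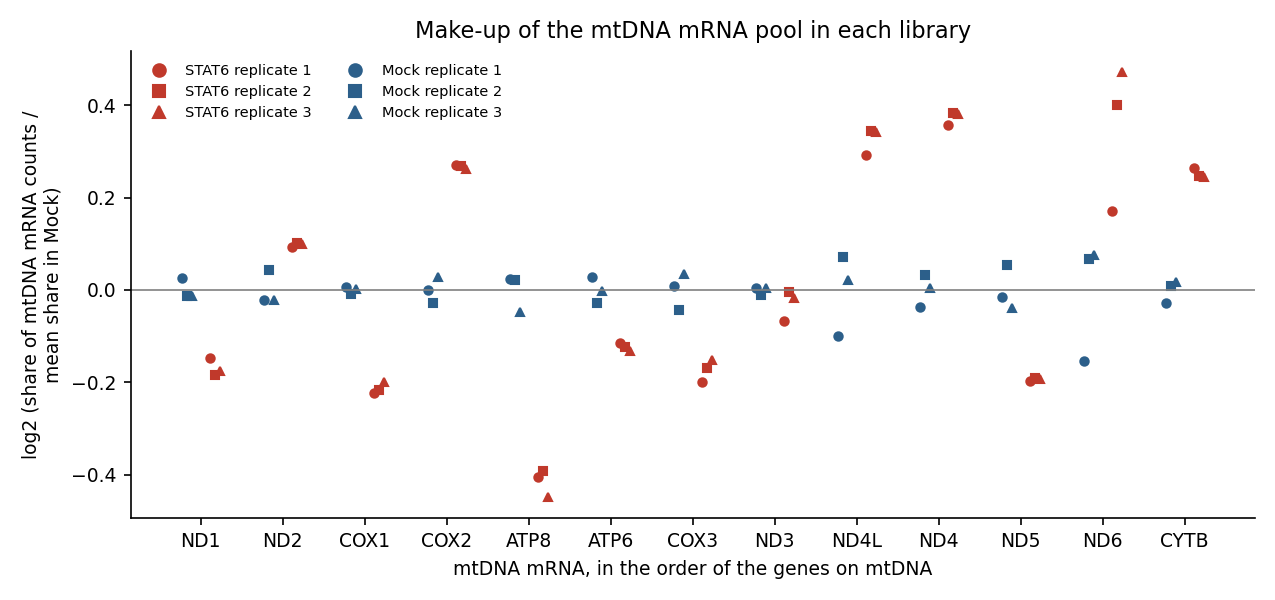
Log2 of each mRNA's share of the summed mtDNA mRNA counts over its mean share in the libraries labelled Mock, with 1 point per library. ND4, ND4L, COX2, CYTB, ND2 and ND6 lie above the Mock libraries, ND1, COX1, ATP8, ATP6, COX3 and ND5 below them, and ND3 overlaps.

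Both rRNAs had lower values in the libraries in which the mRNAs were higher, and 1 of the 2 passed the test. mt-Rnr1, the 12S rRNA of the small ribosomal subunit, was at 691, 762 and 888 CPM in the STAT6-labelled libraries, against 1156, 929 and 1051 in those labelled Mock. Its groups did not overlap, and it was called lower with a wide interval (log2 fold change -0.42, 95% interval -0.79 to -0.05, adjusted p = 0.0467, edgeR). mt-Rnr2, the 16S rRNA of the large subunit, was at 2391, 2543 and 2754 CPM against 3253, 2915 and 2833. It did not overlap either and did not pass (log2 fold change -0.23, 95% interval -0.45 to -0.01, adjusted p = 0.0621, edgeR). Over all genes tested, 37.7% had lower values without overlap.

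These calls depend on the tool, the model and single libraries. DESeq2 and limma-voom each called both rRNAs lower. With the replicate number as a further term, edgeR called neither (adjusted p = 0.126 for mt-Rnr1 and 0.2 for mt-Rnr2). Without the filter on low counts edgeR called mt-Rnr2 (adjusted p = 0.0181) and not mt-Rnr1 (0.0881). With the filter, mt-Rnr2 passed without STAT6 replicate 3 (log2 value -0.29, adjusted p = 0.00867) and without Mock replicate 1 (-0.17, adjusted p = 0.0436). The call of mt-Rnr1 was lost when the fit omitted STAT6 replicate 1 (adjusted p = 0.115), STAT6 replicate 2 (0.132), Mock replicate 1 (0.12) or Mock replicate 3 (0.117), while its log2 value stayed between -0.53 and -0.34. Relative to the mRNA pool both were called lower, mt-Rnr1 by a log2 value of -0.78 (SE 0.14, adjusted p = 0.00613, edgeR) and mt-Rnr2 by -0.58 (SE 0.07, adjusted p = 3.08e-04). Between the 2 rRNAs the ratio of mt-Rnr2 to mt-Rnr1 counts was 3.46, 3.34 and 3.10 against 2.81, 3.14 and 2.70, with overlap (exact permutation test, 2-sided, p = 0.2).

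RNAs of nuclear genes listed as lacking a poly(A) tail in whole or in part, or as ribosomal, were read in the same libraries. Their tails were not measured here. Of 18 listed, 14 were in the files and 10 were tested, 4 of them higher and 0 lower (0 lower also at an unadjusted p under 0.05, edgeR), against 35.8% and 36.8% of all genes, so the higher count is near the background. Malat1, a nuclear long noncoding RNA, was at 450, 424 and 544 CPM against 155, 135 and 177. Neat1, the RNA scaffold of paraspeckles, was at 49.1 ± 2.90 against 32.3 ± 1.76 CPM (SD, n = 3). The Y RNAs Rny1 and Rny3, which bind the Ro protein, had log2 fold changes of 0.98 and 0.97. Gm26917 was at 12681, 12503 and 18337 against 12304, 7934 and 9528 CPM and did not pass (adjusted p = 0.121, edgeR), nor did the RNA of the 7SK particle, Rn7sk (0.96, adjusted p = 0.144), or the signal recognition particle RNAs Rn7s1 (1.51, adjusted p = 0.395) and Rn7s2 (0.77, adjusted p = 0.144), whose near-identical copies can share reads. The whole list took 1.30%, 1.27% and 1.84% of counts under the label STAT6 and 1.29%, 0.829% and 1.00% under the label Mock, with overlap. Gm26917 made up most of it, and without that row the list took 0.0540% to 0.0644% against 0.0199% to 0.0251%, without overlap, with Malat1 as its most abundant member. The part of RNA quality or of the poly(A) selection in the rRNA difference was not tested.

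tRNA rows held 783 counts in all 6 libraries together, of 139560173. TrnL1, the leucine tRNA for UUR codons, lies directly between mt-Rnr2 and ND1 and had 42, 40 and 44 counts in the libraries labelled STAT6 against 67, 61 and 95 in those labelled Mock. On the CPM scale that was 1.81, 2.06 and 2.16 against 2.91, 2.63 and 3.11, lower without overlap (log2 fold change -0.53, 95% interval -0.91 to -0.15, adjusted p = 0.0117, edgeR). The call was lost without STAT6 replicate 1 (adjusted p = 0.0573) or Mock replicate 3 (0.0585).

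TrnL1 thus had the direction of its neighbour mt-Rnr2 and not that of its other neighbour, ND1. Per 100000 counts of mt-Rnr2 it had 75.9, 81.1 and 78.3 counts against 89.4, 90.2 and 110, and per 100000 counts of ND1 14.6, 16.5 and 17.1 against 26.3, 23.5 and 28.5. Both ratios were lower in the libraries labelled STAT6 without overlap (exact permutation test, 2-sided, p = 0.1 each). TrnL1 made up 29.8%, 36.4% and 37.9% of all tRNA counts in the STAT6-labelled libraries, against 53.2%, 55.0% and 53.1% in those labelled Mock.

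With TrnL1 set aside, a step chosen after its values were seen, the other tRNAs had 4.19, 3.52 and 3.41 CPM of the unscaled library totals against 2.64, 2.20 and 2.82, higher without overlap. Relative to the mRNAs of the same library they had 35.2, 28.9 and 28.2 against 26.8, 21.7 and 28.4 counts per 1000000 mRNA counts, with overlap. The overlapping tRNA share of the classes was thus the sum of a lower TrnL1 and a higher remainder.

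TrnM, the tRNA for methionine beside ND2, had 13, 9 and 15 counts against 12, 9 and 16 and did not pass (log2 fold change 0.29, 95% interval -0.47 to 1.04, edgeR). TrnW, the tryptophan tRNA on the other side of ND2, had 10, 11 and 15 counts against 10, 6 and 16 (0.46, 95% interval -0.34 to 1.27). Changes of 2-fold lie within the upper bounds of these intervals, so the depth does not show whether either differed.

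Of the 19 tRNAs that the filter removed, TrnS1 stood out in the fit without a filter. This serine tRNA for UCN codons belongs to the L strand, opposite the H-strand transcript between COX1 and COX2. It had 19, 12 and 9 counts under the label STAT6 and 5, 6 and 8 under the label Mock (log2 value 1.32, SE 0.49, adjusted p = 0.0168, edgeR without a filter). It was the 1 tRNA called higher there, chosen here after its value was seen. Of all 25386 genes in that fit, 4954 were called higher and 4988 lower. L-strand tRNAs together had 39, 27 and 20 counts against 22, 17 and 20, and H-strand tRNAs 102, 83 and 96 against 104, 94 and 159.

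The other 18 tRNAs were close to the limit of detection. TrnG, the glycine tRNA beside ND3, had 10, 5 and 4 counts against 3, 2 and 7, and TrnE, the glutamate tRNA beside ND6, had 7, 9 and 5 against 4, 5 and 6. On the CPM scale TrnG overlapped and TrnE did not (0.337 ± 0.113 against 0.195 ± 0.0210, SD, n = 3), although the counts of TrnE did. TrnY, the tyrosine tRNA, had 0 counts in all 6 libraries, which allows up to 0.0215 CPM (3 counts of the total). TrnC, for cysteine, had 2 counts, both in Mock replicate 1. The remaining 14, TrnF, TrnV, TrnI, TrnQ, TrnA, TrnN, TrnD, TrnK, TrnR, TrnH, TrnS2, TrnL2, TrnT and TrnP, had from 2 (TrnS2) to 25 counts (TrnV) over the 6 libraries. On the CPM scale TrnH, for histidine, was higher without overlap on 9 counts against 3, and the other 13 overlapped. The counts of TrnH were 5, 2 and 2 against 1, 0 and 2, so its groups met before scaling. Of all genes tested, 36.9% were higher without overlap. In all, 16 of the 22 tRNAs had under 30 counts over the 6 libraries, and 11 had a count in each library.

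**Figure D5:**
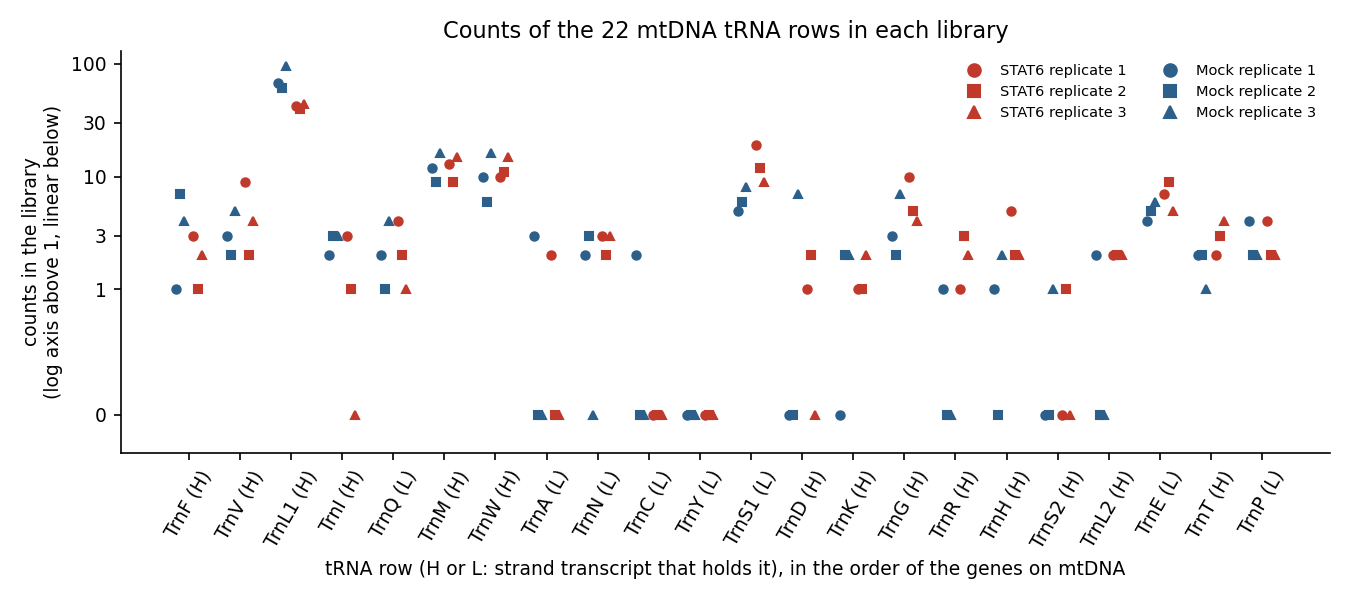
Counts of each tRNA row in each library, on an axis that is logarithmic above 1 count and linear below, in the order of the genes on mtDNA, with H or L for the strand. TrnL1 has 40 to 95 counts per library and is lower in the libraries labelled STAT6, TrnS1 has 5 to 19 and is higher there, and most other rows have under 10.

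The nuclear genes that make and maintain these RNAs were read from 5 lists with 69 symbols, of which 68 were in the files and tested (Fastkd4 is another name of Tbrg4, which was counted). Of the 68, 10 were higher and 44 lower, and their median log2 value was -0.29, against 35.8% higher, 36.8% lower and a median of -0.00 over all genes. In the list for transcription and upkeep of mtDNA 4 were higher and 10 lower of 19. Polrmt, the mitochondrial RNA polymerase, rose to 40.9 ± 1.43 from 25.1 ± 3.07 CPM (SD, n = 3; log2 fold change 0.70, SE 0.07, adjusted p = 1.59e-09, edgeR). Tfam, which bends DNA at the promoters and packages mtDNA, rose as well (0.58), while Tfb2m, the factor that opens the promoter with the polymerase, had a log2 value of 0.01 (adjusted p = 0.905). Tefm, the elongation factor, fell (-1.01), as did Mterf3 (-0.78), described as a repressor of mtDNA transcription, and Mrpl12 (-0.47), a ribosomal protein that also binds the polymerase.

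For cleavage and end maturation 1 was higher and 8 lower of 10. Ptcd2 (-0.68), Fastkd5 (-0.49) and Grsf1 (-0.28) fell, the last 2 being proteins of the granules in which mitochondrial RNA is processed, and Tbrg4 rose (0.22). For tailing, stability and decay 2 were higher and 7 lower of 12. Lrpprc, which with Slirp holds mitochondrial mRNAs stable and tailed, fell to 87.5 ± 3.92 from 131.9 ± 1.61 CPM (SD, n = 3; log2 fold change -0.59, SE 0.04, adjusted p = 3.72e-16, edgeR). Slirp had a log2 value of 0.04 (adjusted p = 0.459). Fastk, needed for ND6 mRNA, fell (-0.99), and so did Fastkd3 (-0.80) and Pnpt1 (-0.70), the polynucleotide phosphorylase that degrades mitochondrial RNA.

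Modification of the rRNAs had 1 higher and 6 lower of 11, with falls of Tfb1m, which methylates the 12S rRNA (-0.54), of the pseudouridine synthase gene Rpusd4 (-0.47) and of Rbfa, a factor of small subunit assembly (-0.32). Ybey, an endoribonuclease of the mitochondrial ribosome, rose (0.50). Modification of tRNAs had 2 higher and 13 lower of 16. Among these Nsun2 (-0.55) and Trmt1 (-0.32), methyltransferases that also act on cytosolic tRNAs, Yrdc, which helps to make the t6A base (-0.57), and Mto1, which modifies the wobble base (-0.40), fell. In each of the 5 lists more genes were lower than higher, the list with Polrmt and Tfam included, and whether these levels are linked to those of the mtDNA RNAs was not tested.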

How the data were processed

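The 6 deposited files each hold raw whole-number counts, 1 per gene symbol, and the authors' steps before them are known only in part. Per the submitters' processing notes, FastQC, STAR, Salmon, edgeR and the human build GRCh37 were used, without versions. Read assignment, strand setting, the treatment of reads shared with nuclear copies of mtDNA, and filters were not given in the sources used here. The files' symbols are those of mouse, so coordinates were left out.

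Counts were analysed with edgeR 4.0.16 in R 4.3.3: filterByExpr (12938 genes with 99.93% of counts), TMM (factors 0.968 to 1.03), glmQLFit (robust) and glmQLFTest with group as the only term, 2-sided. Intervals of log2 values are 95%. The fit was tested on simulated data. Ratios of single genes were compared by exact permutation over libraries. No library was a copy of another: the mean chi-square per gene within a group was 1.99 to 5.72, where sampling noise alone gives about 1.

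Genes were named by rule: all members, Stat6 and the markers that check the labels, and up to 4 per machinery list by smallest adjusted p. Polrmt, Tfam, Tfb2m, Lrpprc and Slirp were added, and the listed nuclear RNAs (tail-less in whole or part, or ribosomal) at 2 CPM or more. Members and lists were chosen with earlier results of these data known. Alternatives used DESeq2 1.42.0, limma 3.58.1 (voom), other scalings and filters, glmTreat, a replicate block and each library left out.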

Additional observations from a re-analysis of the deposited data

How the results depend on the processing

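The 12 mRNAs called higher stayed 12 in every alternative but 2, and leaving out each library in turn gave 12 each time. The smaller changes depended on scaling. With library totals alone the median of all genes moved by -0.0736, and COX1 was at 0.0632 (adjusted p = 0.0174, edgeR), ND5 at 0.0817 and ND1 at 0.107. With the mtDNA mRNA pool as library size 6 mRNAs were higher and 6 lower, and beyond 1.5-fold (glmTreat) 1 was higher and 0 lower, with 2779 genes called in all. On the pool's scale ND1 (-0.17), COX1 (-0.21), ATP6 (-0.12), COX3 (-0.17), ND3 (-0.0298), ND5 (-0.19) and TrnM (-0.0595) changed sign, which follows from a scale that removes the rise of the pool itself. The 1 mRNA called lower, ATP8, was lost with DESeq2 and at an adjusted p of 0.01 (0 in both), and the count was 0 to 1 with a library left out. The 1 rRNA called lower became 2 with library totals alone, the mRNA pool, DESeq2 or limma-voom, 0 with the replicate block, at an adjusted p of 0.01 or with glmTreat, and 0 to 2 with a library left out. Without a filter it stayed 1 but was mt-Rnr2 (adjusted p = 0.0181) and not mt-Rnr1 (0.0881). The 1 tRNA called lower became 0 at an adjusted p of 0.01 and with glmTreat, and 0 to 1 with a library left out. For tRNAs called higher, 0 became 1 (TrnS1) without a filter and was 0 to 1 with a library left out. TrnS1 was called without a filter (adjusted p = 0.0168, edgeR). With the filter its row was kept only when STAT6 replicate 3 or a Mock library was left out. It was called in each of those fits (adjusted p = 0.00364 to 0.0176, edgeR) and was not tested in the others. All of those fits held STAT6 replicates 1 and 2, its highest libraries (19 and 12 counts). It passed the filter through them, so these calls are no separate support. The causes of the other changes were not tested. Differences in share (STAT6 minus Mock) with a library left out were 2.03 to 2.18 percentage points for mRNAs, -0.103 to -0.0697 for rRNAs and -0.156 to 0.407 CPM for tRNAs, the last changing sign without Mock replicate 2 (-0.156). Without mtDNA rows and the listed nuclear RNAs (tail-less in whole or part, or ribosomal) in the denominator, the mRNA difference was 2.75 percentage points. A filter of 1 CPM in 3 libraries left TrnM and TrnW without a value.

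Same-numbered libraries of the groups correlated by 0.0729, 0.103 and 0.0061 in their deviations from the group means. Other pairs correlated by -0.124 to 0.0624, and 4 of 6 libraries correlated best with their own number. With 3 libraries per group, these values cannot tell whether the numbers pair the samples. With the replicate block 12 mRNAs were higher, 1 lower, and 0 rRNAs passed (mt-Rnr1 log2 value -0.42, adjusted p = 0.126).

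Depth limits the tRNAs: the filter removed 19 of 22, and without it 18 of those 19 gave a value, 1 of them called. In that fit 9942 of 25386 genes were called.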
